A study of Mus musculus with 36 samples.

Results

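Histone genes were examined in RNA sequencing counts from the embryonic mouse forebrain, across an allelic series of *Chd8* at E12.5 and a conditional knockout at E10.5. The 45 genes are those whose symbol starts with Hist1h, Hist2h, Hist3h, Hist4h, H2af, H3f or H1f, without pseudogenes marked -ps, and with a mean of at least 10 counts over the 18 libraries, of 46603 genes in the tables. They comprise 7 linker genes, 29 clustered core genes (4 of H2A, 9 of H2B, 7 of H3 and 9 of H4) and 9 variant genes. The prefixes matched 85 symbols, of which 39 histone genes fell under the minimum and 1 was an antisense RNA, *H3f3aos*, that was left out; 4 further symbols ending in -ps were not taken. The genes just inside the minimum were *Hist2h2ac*, with a mean of 10.3 counts, and *Hist1h3b*, with 11.1, and those just outside were *Hist1h4f*, with 9.67, and *Hist1h4b*, with 9.39. Had the mean been taken within a stage, 35 histone genes would have passed at E12.5 and 53 at E10.5. *H3f3c*, listed with the variants, is annotated as a processed pseudogene.

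*Chd8* encodes an ATP-dependent chromatin remodeler, and the study lowered its dosage in steps to compare forebrain development. At E12.5, 1 neocortex made 1 library, and each of 4 genotypes had 3 libraries: wild type (*Chd8*+/+), heterozygous null (*Chd8*+/-), homozygous for the neo allele (*Chd8* neo/neo) and neo over null (*Chd8* neo/-). At E10.5, telencephalic vesicles of 2 embryos were pooled per library, with 3 libraries of Ctrl (a mixture of *Chd8* f/f and *Chd8* f/+ embryos, without separate labels) and 3 of cKO (Sox1-Cre; *Chd8* f/f). All mice were on the C57Bl/6J strain. The neo allele carries a neomycin resistance cassette between exons 3 and 4 that reduces expression, the null allele was made by deletion of exon 3 with a β-actin-Cre, and Sox1-Cre acts in the early neural lineage, while the vesicles also hold cells of other lineages.

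Linker histones of the H1 family bind where DNA enters and leaves the nucleosome, whereas the core histones H2A, H2B, H3 and H4 form the particle around which DNA is wrapped. Most core and H1 proteins are made during S phase from clustered genes whose transcripts end in a conserved stem-loop in place of a poly(A) tail, and are cut there with the help of the stem-loop binding protein and the U7 small nuclear ribonucleoprotein. The variants and the linker histones encoded by *H1f0* and *H1fx* are made outside S phase too, mostly from polyadenylated transcripts. Some of them, but not all, accumulate as cells leave the cell cycle or take on specialised chromatin. Since mRNA was selected for these libraries, transcripts that end at the stem-loop could be counted only as far as they escaped that selection, and the counts of clustered genes are not a measure of all their RNA.

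The stem-loop is shown for genes on which the results turn, because it marks which transcripts can end without a tail. The 16 bases of the stem-loop are in capitals, with 5 bases on each side, 5′ to 3′, read from the GENCODE vM21 transcripts on GRCm38.
Hist1h1c: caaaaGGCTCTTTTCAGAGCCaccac
Hist1h1e: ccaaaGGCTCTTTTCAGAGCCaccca
Hist1h2be: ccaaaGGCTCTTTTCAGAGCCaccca
Hist1h4j: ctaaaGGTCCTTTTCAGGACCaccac
Hist1h4i: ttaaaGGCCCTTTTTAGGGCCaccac
Hist3h2a: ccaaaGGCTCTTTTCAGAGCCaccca
Hist3h2ba: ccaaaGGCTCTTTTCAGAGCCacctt
H2afx: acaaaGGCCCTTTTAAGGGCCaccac
The stem-loop was found in 26 of 29 clustered core genes, in the linker genes *Hist1h1c*, *Hist1h1d* and *Hist1h1e*, and in 1 variant gene, *H2afx*. It was not found in *Hist1h2bc*, *Hist1h4k* (a gene model of 312 bases) or *Hist2h2be*. A transcript model that stops before the site would also show none, so a stem-loop not found here is not shown to be missing. The annotated transcripts went on past the stem-loop for 23 to 4884 bases over these genes, so each also had an annotated form that extends beyond the processing site. These extensions were 840 bases in *Hist1h1c*, 1153 in *Hist1h1e*, 1861 in *Hist1h2be* (2 of 3 transcripts), 385 in *Hist1h4j*, 330 in *Hist1h4i*, 1643 in *Hist3h2a*, 169 in *Hist3h2ba* and 822 in *H2afx*. The gene models behind the counts came from an older Ensembl release and need not have the same ends.

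The promoter is shown for *Hist1h1c* and *Hist1h1e*, the linker genes of chromosome 13 that were lower in cKO than in Ctrl, with matches to AAACACA (the H1 box), then to the CCAAT box and, in *Hist1h1e*, to TATAAA in capitals. These are the 250 bases before the RefSeq start on GRCm38.p6, at chr13:23738557-23738806 on the plus strand for *Hist1h1c* and chr13:23622559-23622808 on the minus strand for *Hist1h1e*.
Hist1h1c promoter: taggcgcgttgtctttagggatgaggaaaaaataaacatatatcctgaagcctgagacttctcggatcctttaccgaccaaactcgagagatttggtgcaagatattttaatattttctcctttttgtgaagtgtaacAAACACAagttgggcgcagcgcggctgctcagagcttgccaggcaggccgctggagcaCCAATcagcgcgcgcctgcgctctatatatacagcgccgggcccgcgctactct
Hist1h1e promoter: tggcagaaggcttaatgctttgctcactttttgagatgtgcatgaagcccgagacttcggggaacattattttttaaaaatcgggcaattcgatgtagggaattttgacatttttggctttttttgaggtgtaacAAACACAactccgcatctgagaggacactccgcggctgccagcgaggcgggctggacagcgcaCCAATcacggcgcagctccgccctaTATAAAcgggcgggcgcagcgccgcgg
Windows from 250 bases before to 50 after the start were matched for 40 of the 45 genes and searched on both strands for the TATA box as TATAAA, the CCAAT box, the octamer as ATTTGCA and the H1 box as AAACACA, where matches to different motifs may share end letters. AAACACA lay in 4 of 7 linker windows (57.1%), those of *Hist1h1b*, *Hist1h1c*, *Hist1h1d* and *Hist1h1e*, and in 0 of 25 clustered core windows, against 7.14% of the 27025 windows of all genes. TATAAA lay in 14 of 25 clustered core windows (56%) and 1 of 8 variant windows (12.5%), against 14.2% of all. Among clustered core genes, CCAAT lay in every matched window of H2A (4), H2B (7) and H3 (6) but in 3 of 8 of H4 (37.5%), against 37.9% of all. It also lay in 5 of 7 linker windows (71.4%) and 6 of 8 variant windows (75%). ATTTGCA lay in 6 of 25 clustered core windows (24%), those 6 being H2A and H2B genes, against 3.98%. A match here is a string of letters and not a shown site of binding.

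The libraries held 38774591 to 61051667 counts at E12.5 and 49632937 to 68488879 at E10.5, after the 2 runs of each were summed. Levels are given as CPM, the count scaled to a fixed library total with TMM factors. *Chd8* itself had 237 ± 2.41 CPM (SD, n = 3 in each group) in *Chd8*+/+ and fell to 149 ± 8.38 in *Chd8* neo/- embryos, 167 ± 3.04 in heterozygotes and 209 ± 5.64 in neo homozygotes, and in cKO to 121 ± 4.78 from 170.6 ± 12.01 in Ctrl, with no overlap of libraries in any of these comparisons. The count takes all exons, so RNA from a deleted allele can still be counted. The paper reports less *Chd8* transcript (quantitative RT-PCR, earlier embryos) and less full-length protein (Western blot, E12.5) in neo homozygotes than in heterozygotes. The CPM of *Chd8* therefore do not give the order of dosage. Dorsal forebrain markers summed to 882 to 1187 CPM at E12.5 and to 692 to 822 CPM at E10.5, and all 5 were tested at both stages. According to the study's methods, the replicates of a genotype were taken from separate litters. All tests below are edgeR's quasi-likelihood test with Benjamini-Hochberg adjustment over all genes tested, called at an adjusted p under 0.05, and fold changes are on the log2 scale. The filter on low counts passed 42 of the 45 histone genes at E12.5 (not *Hist1h1a*, *Hist1h3b* or *Hist1h4a*), 43 at E10.5 (not *Hist2h2ac* or *Hist2h3c2*) and 45 between the stages, so sparse genes could enter a test through the group where they were higher.

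Per kilobase of gene model, the highest levels were those of genes made outside S phase. In *Chd8*+/+ at E12.5, *H3f3b*, which encodes the variant H3 deposited outside S phase, had the highest level, with 346 ± 14.8 CPM per kb (SD, n = 3), followed by *H2afz* (H2A.Z) with 301.5 ± 20.5 and by *H1f0* with 209 ± 5.53. *H2afy2* (a macroH2A) with 111 ± 4.60, *H2afv* (the second H2A.Z gene) with 108 ± 3.53, *H3f3a* with 107 ± 9.64 and *H2afx* (H2A.X, phosphorylated around DNA breaks) with 106 ± 4.41 CPM per kb did not differ beyond their spread. *H1fx* had 62.8 ± 4.53 and *H2afy*, the other macroH2A gene, 55.6 ± 1.57 CPM per kb. *H3f3c* had 10.1 ± 0.760 and *H2afj*, a variant known from ageing cells, 8.05 ± 0.397 CPM per kb.

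Among clustered core genes, few carried most of the counts. The highest were *Hist3h2ba*, an H2B gene, with 70.4 ± 9.21 CPM per kb, *Hist1h4i*, an H4 gene, with 27.3 ± 1.85, and *Hist2h2be*, an H2B gene, with 11.97 ± 1.07. *Hist3h2a*, the H2A gene beside *Hist3h2ba* on chromosome 11, had 7.69 ± 0.638 and *Hist1h2bc* 6.37 ± 0.419 CPM per kb. The next members of each family were lower. For H2A these were *Hist2h2ac* (0.483 CPM per kb) and *Hist1h2ae* (0.451), for H4 *Hist1h4d* (1.14) and *Hist1h4k* (0.937), and the highest H3 genes were *Hist1h3c* (1.58), *Hist1h3g* (0.567) and *Hist2h3c2* (0.361). Of the linker genes of chromosome 13, *Hist1h1c* had 4.42 ± 0.666 CPM per kb and the other 4 had 0.186 to 0.570. *H1f0* held 85.0% and *H1fx* 13.6% of the linker CPM, and 4 clustered core genes, *Hist3h2ba* (34.7%), *Hist2h2be* (25.3%), *Hist1h4i* (16%) and *Hist3h2a* (13.3%), held most of the CPM of theirs.

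**Figure D1:**
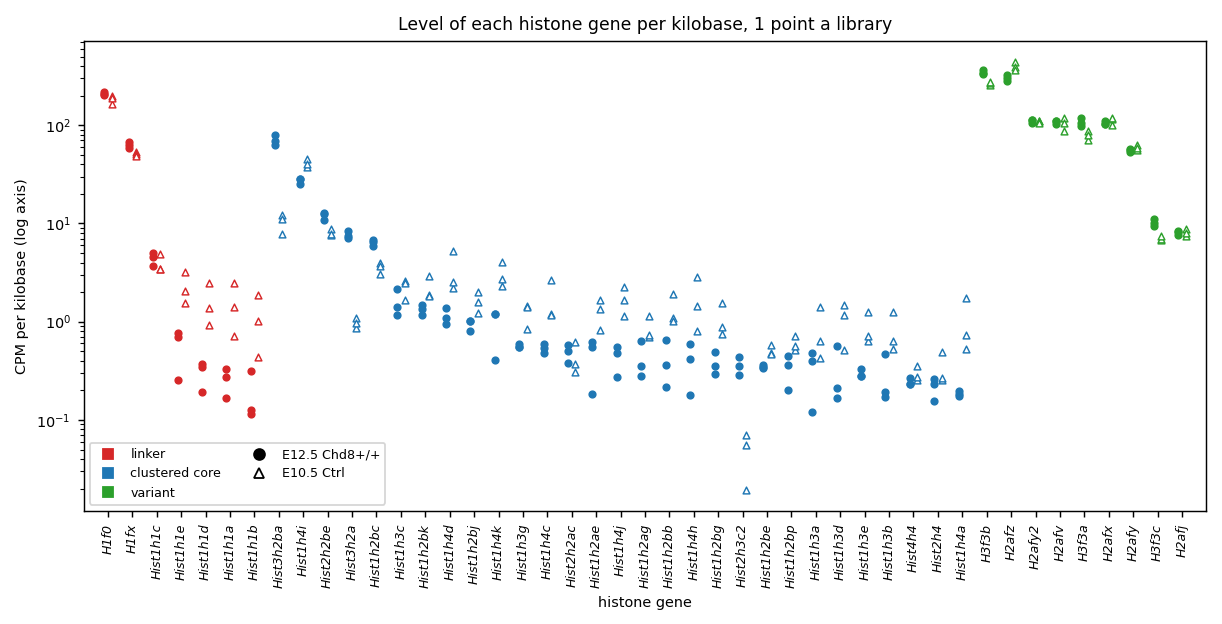
Level of each histone gene in CPM per kb (log axis), in E12.5 *Chd8*+/+ (filled circles) and E10.5 Ctrl (open triangles), 3 libraries each, with every point a library. By group mean, the 7 highest genes in *Chd8*+/+ are variants and *H1f0*, and *Hist3h2ba* is the highest clustered core gene with 70.4. The means of most clustered core genes lie below 2.26 CPM per kb in Ctrl and below 1.58 in *Chd8*+/+.

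In E10.5 Ctrl, *H2afz* stood first with 397 ± 37.5 CPM per kb and *H3f3b* second with 265 ± 8.95, and these groups of libraries did not overlap. *H1f0* followed with 183 ± 18.3. *H2afx* (112 ± 9.16), *H2afy2* (109 ± 2.89) and *H2afv* (104 ± 16.2 CPM per kb) did not differ beyond their spread. *Hist1h4i* was the highest clustered core gene with 40.7 ± 3.72 CPM per kb, above *Hist3h2ba* with 10.4 ± 2.37 and *Hist2h2be* with 8.06 ± 0.693. At both stages the clustered core was led by genes outside the large cluster of chromosome 13 or by *Hist1h4i*, while the remaining genes of that cluster had few counts each. Over the 18 libraries, 24 of the 29 clustered core genes had a mean count under 100.

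Some of the 75-base words of these genes occur in other genes too, and such reads may be lost or assigned to the wrong copy. The share was highest for *Hist1h2ag* (77.6%), *Hist1h2bk* (72.6%), *Hist1h4k* (68.1%) and *Hist2h3c2* (62.6%), so values of these 4 genes are uncertain. *H3f3c* came next with 59.9%, and its values are uncertain too. Shares were 6.87% for *H2afx*, 4.49% for *H1f0*, 14.3% for *Hist1h2be*, 28.4% for *Hist1h1e* and 30.7% for *Hist3h2a*, and *H2afv* and *Hist2h2be* shared none. *H2afz* had 28.8% and *H3f3a* 23.1%.

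The comparison of *Chd8*+/- with *Chd8*+/+ asked what loss of 1 allele does at E12.5. None of the 42 histone genes tested was called, with 0.0213% of all genes called. At an unadjusted p under 0.05 there were 3, *Hist1h3g*, *Hist1h4i* and *Hist1h2bj* (the last named after its values were seen), and DESeq2 called 0. The estimate of *H2afx* was 0.01 and that of *H1fx* 0.01 as well. *H1f0* had 448 ± 22.2 CPM against 479 ± 12.6 (log2 fold change -0.10, adjusted p = 0.799 by edgeR), with no overlap of libraries. The clustered core genes had a median of -0.14, the linker genes of -0.06 and the variants of 0.03, where all tested genes had 0.00.

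In *Chd8* neo/neo against *Chd8*+/+, 4 of 42 histone genes were called, a share close to the background of 8.16%. *H2afx*, *H1fx* and *H2afv* rose and *Hist3h2a* fell. The background was 3.71% in the higher and 4.45% in the lower direction. *H2afx* (chr9:44334694-44336077) had 143.8, 143.2 and 154.0 CPM in the 3 *Chd8*+/+ libraries and 165.6, 187.3 and 187.2 in *Chd8* neo/neo. Each *Chd8* neo/neo library was above each *Chd8*+/+ library, and the change was 0.29 ± 0.06 (SE) with an adjusted p of 0.0134 by edgeR. In bulk tissue, fewer cells of a type and less RNA per cell cannot be told apart for this or any value here.

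*H1fx* (chr6:87980421-87981637) encodes a divergent linker histone made outside S phase. It had 76.5, 70.9 and 81.9 CPM in *Chd8*+/+ and 85.0, 97.6 and 100.6 CPM in *Chd8* neo/neo. The groups did not overlap, though the lowest *Chd8* neo/neo library was near the highest *Chd8*+/+ library, and the change was 0.31 ± 0.08 (adjusted p = 0.0316, edgeR). The gene overlaps *Gm5577* on the opposite strand, and reads were counted without regard to strand. *Gm5577* had an estimate of 0.24 (adjusted p = 0.314, edgeR).

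*H2afv* (chr11:6427229-6444443) had 169.4, 179.8 and 179.0 CPM in *Chd8*+/+ and 191.3, 196.9 and 197.9 CPM in *Chd8* neo/neo. This was a small step, 0.15 ± 0.04 (adjusted p = 0.0325, edgeR), with tight libraries and no overlap. *Hist3h2a* (chr11:58954685-58956830) had 16.17, 18.004 and 15.33 CPM in *Chd8*+/+ and 12.1, 13.7 and 14.1 CPM in *Chd8* neo/neo. It fell by 0.31 ± 0.09 (adjusted p = 0.0419, edgeR), again without overlap. *Hist3h2a* shares its start and strand with *Trim17*, which had an estimate of -0.32 (adjusted p = 0.181, edgeR), and reads in both genes could not be assigned to either.

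The remaining variants of *Chd8* neo/neo did not pass the test. *H2afy* had 411 ± 9.63 CPM against 379 ± 10.7 (0.12, adjusted p = 0.110, edgeR) and *H2afj* 17.1 ± 1.49 against 14.7 ± 0.727 CPM (0.21, adjusted p = 0.116), both without overlap of libraries. *H2afz* had 581 ± 26.9 against 535 ± 36.4 CPM (0.12, adjusted p = 0.255), with overlap. The medians were 0.12 for variants, 0.14 for linker genes and -0.04 for clustered core genes, against 0.01 for all tested genes. All 7 clustered core genes outside chromosome 13 had estimates below 0, as had 48.8% of all tested genes, with a median of -0.28. Leaving out 1 library left 0 to 2 calls in place of 4, while 2.28% to 13.7% of all genes were called. There were 0 without *Chd8*+/+ replicate 2 or without *Chd8* neo/neo replicate 2, 1 without *Chd8*+/+ replicate 1, and 2 without any 1 of the other 3. *H2afx* was the most durable, called in 9 of 11 alternatives and lost without either replicate 2 (0.28, adjusted p = 0.0579, and 0.26, adjusted p = 0.0712, edgeR). *H1fx* was kept without *Chd8*+/+ replicate 3 or *Chd8* neo/neo replicate 1, *Hist3h2a* without *Chd8* neo/neo replicate 3, and *H2afv* in none of the 6.

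Neuron markers moved beside these values in *Chd8* neo/neo. All 15 had estimates below 0 and 3 were called lower (*Map2*, *Snap25* and *Dcx*), and their sum was 3258 to 3923 CPM against 4082 to 4897 CPM in *Chd8*+/+, with none at 0 at E12.5. Over all tested genes, 48.8% had estimates below 0, 4.45% were called lower and 3.71% higher. Of 23 S-phase genes, 6 were called higher and 0 lower, with a median of 0.14. The part of either in the histone values was not tested.

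With the lowest *Chd8* level, in *Chd8* neo/- against *Chd8*+/+, 3 of 42 histone genes were called, all higher, below the background of 11.5% and close to that in the higher direction, 5.48% of all genes. These were *H2afx*, *H2afv* and *H2afj*. *H2afx* had 177.3, 191.8 and 171.5 CPM in *Chd8* neo/-, all above the *Chd8*+/+ libraries (0.29 ± 0.06, adjusted p = 0.00832, edgeR). *H2afv* had 190.9, 196.4 and 194.4 CPM, again all above (0.14 ± 0.04, adjusted p = 0.0346). *H2afj* (chr6:136808244-136810074) had 14.9, 15.4 and 13.97 CPM in *Chd8*+/+ and 16.9, 17.9 and 18.8 CPM in *Chd8* neo/- (0.28 ± 0.08, adjusted p = 0.0407, edgeR). Its groups did not overlap either, at far lower levels than *H2afx*.

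*Hist1h1c*, the best represented H1 gene of chromosome 13, had 7.09, 7.83 and 5.78 CPM in *Chd8*+/+ and 8.40, 8.66 and 8.22 CPM in *Chd8* neo/- (0.29, adjusted p = 0.220, edgeR). The libraries did not overlap but the test was not passed. *H1fx* had an estimate of 0.14 and the linker median was 0.23. The clustered core median was 0.12 and that of variants 0.11, where all tested genes had 0.00. Leaving out 1 library left 0 to 2 calls, with 5.33% to 8.06% of all genes called. There were 0 without *Chd8* neo/- replicate 2, when *H2afx* had 0.24 and an adjusted p of 0.0515, 2 (*H2afx* and *H2afv*) without *Chd8*+/+ replicate 2, and 1 (*H2afx*) without any of the other 4. Over all genes, the main fit called 5.48% higher and 5.99% lower. Of 9 erythroid markers, 4 were called higher in *Chd8* neo/-, with sums of 4642 to 7218 CPM against 3281 to 4009 CPM in *Chd8*+/+, and 2 of 15 neuron markers (*Map2* and *Dcx*) were called lower. Their part in the histone values was not tested.

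**Figure D2:**
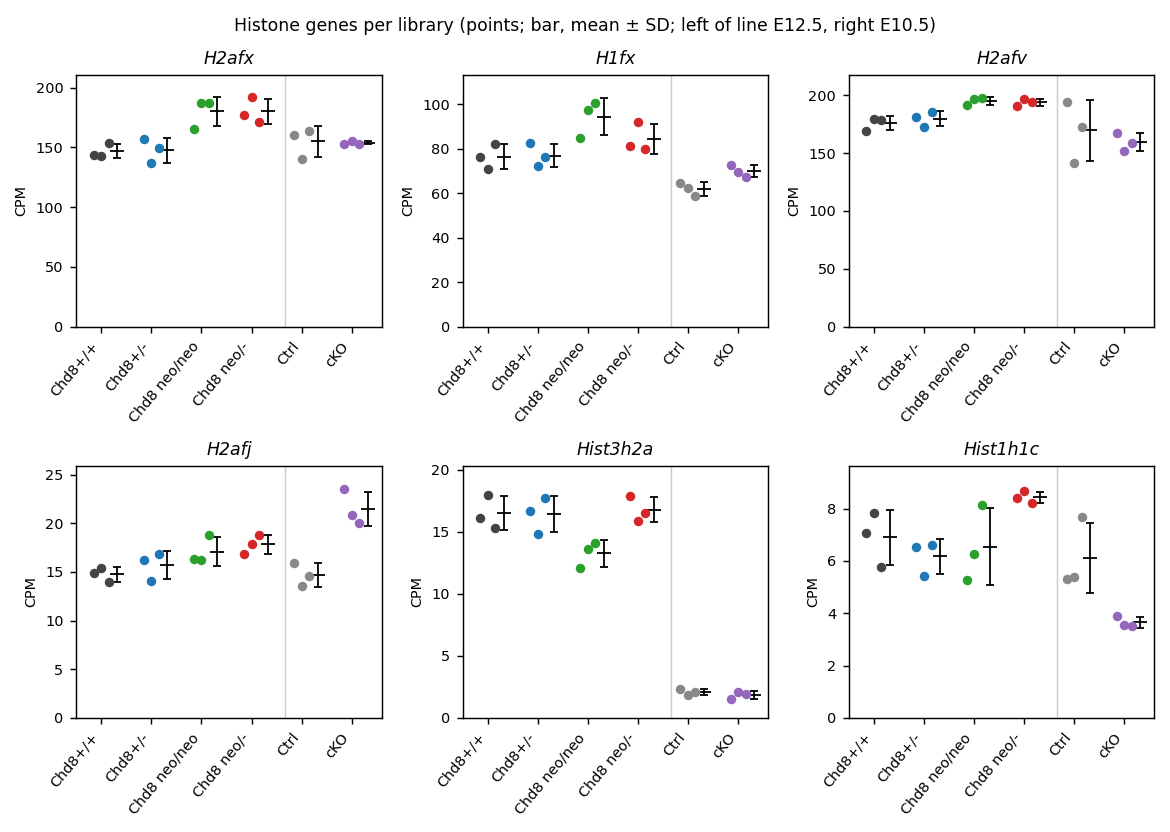
CPM of 6 histone genes (*H2afx*, *H1fx*, *H2afv*, *H2afj*, *Hist3h2a* and *Hist1h1c*) in each library (points) of the 6 groups, with CPM scaled within the table of each stage. *H2afx* lies between 137 and 157 CPM in *Chd8*+/+ and *Chd8*+/- and between 166 and 192 in *Chd8* neo/neo and *Chd8* neo/-, while *Hist3h2a* and its scale drop to 1.52 to 2.31 CPM at E10.5.

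*Chd8*+/- was also the reference for both neo genotypes. In *Chd8* neo/neo against *Chd8*+/-, 2 of 42 histone genes were called, *H2afx* and *H1fx*, both higher, near the background of 5.28% (2% higher). *H2afx* had 157.1, 136.6 and 149.4 CPM in *Chd8*+/-, all below the *Chd8* neo/neo libraries (0.29 ± 0.06, adjusted p = 0.0255, edgeR). *H1fx* had 82.4, 72.0 and 76.4 CPM in *Chd8*+/-, below the *Chd8* neo/neo libraries (0.30 ± 0.08, adjusted p = 0.0454). Same-numbered libraries of these 2 genotypes deviated together, and with the replicate number as a block 1 histone gene was called, *H2afx*, while *H1fx* had an adjusted p of 0.0750. *H1f0* had 505 ± 23.96 CPM against 448 ± 22.2 (0.18, adjusted p = 0.0503 by edgeR, 0.0107 by DESeq2) and *Hist3h2a* 13.29 ± 1.080 against 16.4 ± 1.46 CPM (-0.30, adjusted p = 0.0541 by edgeR, 0.0172 by DESeq2). None of the 8 tested H4 genes had an estimate below 0, as 48.5% of all tested genes had, and none was called. Of the same 8 genes, 4 were below 0 in *Chd8* neo/neo against *Chd8*+/+, and 7 in *Chd8*+/- against *Chd8*+/+. Leaving out 1 library left 0.121% to 11% of all genes called and 0 to 2 histone genes, with 0 without *Chd8*+/- replicate 1, *Chd8*+/- replicate 3 or *Chd8* neo/neo replicate 2, and 1 or 2 without the others. *H1fx* was lost without any 1 of the 6, and *H2afx* without any *Chd8*+/- library or *Chd8* neo/neo replicate 2, with adjusted p-values of 0.0531 to 0.101 (edgeR). This comparison shares *Chd8* neo/neo libraries with that against *Chd8*+/+, so the 2 are not independent.

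Between *Chd8* neo/- and *Chd8*+/-, 1 of 42 histone genes was called, *H2afx* (0.29 ± 0.06, adjusted p = 0.0182, edgeR), below the background of 5.43% (2.18% higher). *Hist1h4i* had 21.1 ± 1.46 against 17.6 ± 1.84 CPM (0.26, adjusted p = 0.0747) and *Hist1h1c* 8.43 ± 0.221 against 6.19 ± 0.669 CPM (0.45, adjusted p = 0.0892). DESeq2 called both of these, with adjusted p-values of 0.0422 and 0.0404. With a library left out, 1.28% to 3.63% of all genes were called. The call of *H2afx* was lost without *Chd8*+/- replicate 2 (adjusted p = 0.0596), *Chd8*+/- replicate 3 (0.0512), *Chd8* neo/- replicate 1 (0.0712) or *Chd8* neo/- replicate 2 (0.101). The 2 genotypes with a neo allele were also compared with each other (*Chd8* neo/- minus *Chd8* neo/neo), and 0 of 42 histone genes were called, where 0.0159% of all genes were; 3 had an unadjusted p under 0.05 and DESeq2 called 0. *H2afx* had an estimate of 0.00 and *H1fx* of -0.16. *Hist3h2a* had 16.8 ± 1.01 against 13.29 ± 1.080 CPM (0.33, adjusted p = 0.413, edgeR), and its libraries did not overlap.

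Genes that make, carry or process histones were followed as a list of 50, all tested. None was called in *Chd8*+/- against *Chd8*+/+, where 0.0213% of all genes were. In *Chd8* neo/neo against *Chd8*+/+, 8 rose and 1 fell, against backgrounds of 3.71% and 4.45%. The smallest adjusted p-values were those of *Chaf1b*, a subunit of the CAF-1 chaperone that places H3 and H4 behind the fork (0.30, adjusted p = 0.00570, edgeR), *Vps72*, which carries H2A.Z (0.17, adjusted p = 0.0112), and *Cenpa*, the centromeric H3 (0.28, adjusted p = 0.0157). *Atrx*, which deposits the H3 variant with Daxx, fell by 0.17 (adjusted p = 0.0289). In *Chd8* neo/- against *Chd8*+/+, 7 rose, against a background of 5.48%, led by *Chaf1b* (0.34, adjusted p = 0.00130), *Vps72* (0.16) and *Oip5*, of the CENP-A loading machinery (0.28). The 3 that fell, a share like the background of 5.99%, were *Atrx* (-0.25, adjusted p = 0.00234), *Ubn2*, of the HIRA complex (-0.24), and *Lsm11*, of the U7 particle (-0.19). The medians of the list were 0.09 and 0.04 in the 2 comparisons, which share the *Chd8*+/+ libraries.

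In *Chd8* neo/neo against *Chd8*+/-, 4 of the 50 rose and 0 fell, against backgrounds of 2% and 3.28%, led by *Cenpa* (0.33, adjusted p = 0.0165, edgeR), *Mcm2*, a helicase subunit that holds H3 and H4 (0.19), and *Asf1b*, an H3 and H4 chaperone (0.22). Against the same reference *Chd8* neo/- had 3 that rose, against 2.18% of all genes (*Cenpa*, 0.27, *Chaf1b*, 0.23, and *Oip5*, 0.27) and 2 that fell, against 3.25% (*Lsm11*, -0.24, and *Atrx*, -0.22). Between both neo genotypes none was called.

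At E10.5, cKO and Ctrl vesicles were compared to ask what loss of *Chd8* in the neural lineage does before most neurons are born. Of 43 histone genes tested, 10 were called, 2 higher and 8 lower, against a background of 11.4% (5.75% higher, 5.7% lower), so the share of histone genes that fell was above the background. The linker genes *H1f0*, *Hist1h1c* and *Hist1h1e* fell, as did the clustered core genes *Hist1h2be*, *Hist3h2ba*, *Hist2h2be*, *Hist1h4j* and *Hist1h4k*, and the variants *H2afj* and *H2afy2* rose. Estimates were below 0 for 38 of 43 histone genes, with a median of -0.48, where 50.4% of all tested genes were below 0 and their median was 0.00. The minimum of counts bears on these figures, since 10 of the 45 genes reached it through E10.5 alone. High Ctrl libraries could thus bring a gene in. All 10 called genes reached the minimum at E12.5 too, and estimates below 0 were not counted apart for the genes that did so.

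*H1f0* (chr15:79028212-79030498) had 451, 371 and 433 CPM in Ctrl and 293, 308 and 330 CPM in cKO. Every cKO library was below every Ctrl library, and it fell by 0.43 ± 0.08 (adjusted p = 0.00742, edgeR). *Hist1h1c* (chr13:23738808-23740367) had 5.31, 5.38 and 7.68 CPM in Ctrl and 3.88, 3.56 and 3.52 in cKO. The cKO libraries were tightly grouped and did not reach the lowest Ctrl library (-0.75 ± 0.15, adjusted p = 0.0116). *Hist1h1e* (chr13:23621755-23622502) had 1.15, 1.53 and 2.38 CPM in Ctrl, from 60, 77 and 133 counts, and 0.88, 0.76 and 0.91 CPM in cKO, from 52, 48 and 61 counts (-0.997 ± 0.25, adjusted p = 0.0300). Ctrl replicate 3 was the highest library for both *Hist1h1c* and *Hist1h1e*, whose stem-loops and promoters are printed above.

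The other H1 genes of chromosome 13 had estimates of -1.16 (*Hist1h1a*, adjusted p = 0.128, edgeR), -0.80 (*Hist1h1b*, adjusted p = 0.336) and -0.95 (*Hist1h1d*, adjusted p = 0.0940). *Hist1h1b* had 0.32, 0.76 and 1.40 CPM in Ctrl and 0.66, 0.41 and 0.37 CPM in cKO, and these overlapped. *H1fx* was the 1 linker gene with an estimate above 0, with 64.7, 62.4 and 58.6 CPM in Ctrl and 72.7, 69.6 and 67.3 CPM in cKO (0.17, adjusted p = 0.0920). Its groups did not overlap. The linker sum was 443 to 524 CPM in Ctrl and 373 to 404 CPM in cKO, and the linker median was -0.80, set largely by genes with few counts. Of these, *Hist1h1a* and *Hist1h1b* reached the count minimum through E10.5 alone.

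**Figure D3:**
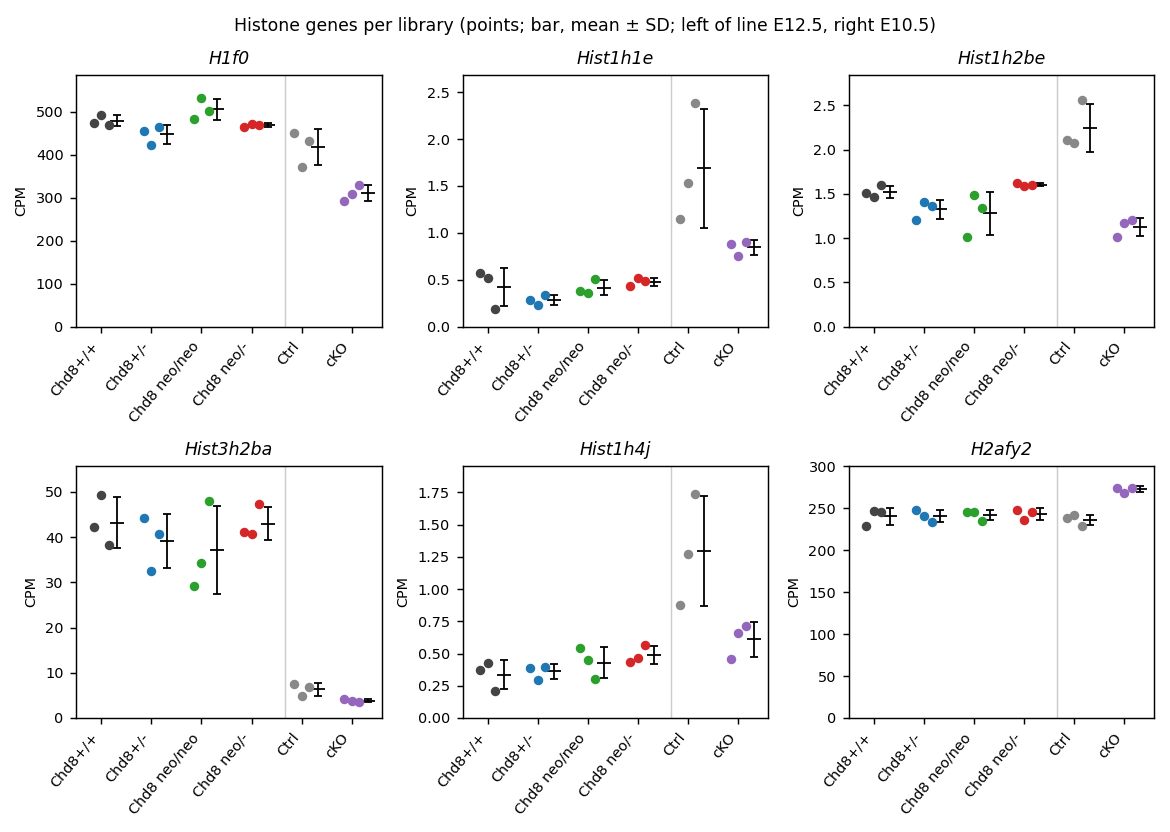
CPM of *H1f0*, *Hist1h1e*, *Hist1h2be*, *Hist3h2ba*, *Hist1h4j* and *H2afy2* in each library (points) of the 6 groups, with CPM scaled within the table of each stage. The 3 cKO libraries lie below the 3 Ctrl libraries for the first 5 genes and above them for *H2afy2*, and Ctrl *Hist1h1e* spreads from 1.15 to 2.38 CPM.

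Among clustered core genes, 26 of 27 tested had estimates below 0, with a median of -0.57, and 5 were called, all lower. Of these 27, 8 reached the count minimum through E10.5 alone, and none of the 8 was called. The direction was shared by all 3 H2A, all 6 H3 and all 9 H4 genes and by 8 of 9 H2B genes. *Hist1h2be* (chr13:23583742-23621124), an H2B gene with long annotated transcripts, had 2.102, 2.071 and 2.558 CPM in Ctrl and 1.01, 1.17 and 1.20 CPM in cKO. The groups were well apart, with 104 to 143 counts against 60 to 81 (-0.99 ± 0.16, adjusted p = 0.00409, edgeR). *Hist1h1e* lies just before *Hist1h2be* on the same minus strand, and its annotated transcript goes on for 1153 bases past the stem-loop. RNA that runs on from *Hist1h1e* may be counted in *Hist1h2be*, so the calls of these genes may not be separate, which was not tested. *Hist3h2ba* (chr11:58948920-58949533) had 7.57, 4.76 and 6.82 CPM in Ctrl and 4.17, 3.75 and 3.55 CPM in cKO (-0.74 ± 0.16, adjusted p = 0.0168). *Hist2h2be*, for which no stem-loop was found, had 23.2, 19.8 and 20.4 CPM in Ctrl and 17.9, 15.7 and 16.5 CPM in cKO (-0.34 ± 0.09, adjusted p = 0.0358). None of these 3 H2B genes overlapped between the groups.

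The H4 gene *Hist1h4j* had 0.88, 1.27 and 1.74 CPM in Ctrl, from 46, 64 and 97 counts, and 0.46, 0.66 and 0.71 CPM in cKO, from 27, 42 and 48 counts (-1.08 ± 0.27, adjusted p = 0.0275, edgeR). *Hist1h4k* had 0.73, 0.86 and 1.27 CPM in Ctrl and 0.49, 0.38 and 0.48 CPM in cKO (-1.09 ± 0.26, adjusted p = 0.0221), with most of its words shared with other genes. The groups of both genes were apart, and Ctrl replicate 1 was the library nearest to cKO in each. *Hist1h4i*, the H4 gene with the most counts, had 32.6, 27.3 and 28.95 CPM in Ctrl and 27.1, 21.7 and 22.3 CPM in cKO (-0.32, adjusted p = 0.0613), just apart and not called. *Hist1h3d* had the lowest estimate, -1.19 (adjusted p = 0.0585). *Hist1h2bp*, with 0.36, 0.40 and 0.50 CPM in Ctrl and 0.73, 0.76 and 0.43 CPM in cKO, was the exception in direction (0.59, adjusted p = 0.202). These last 2 genes are named after their values were seen. *Hist3h2a* had 2.31, 1.85 and 2.08 CPM against 1.52, 2.095 and 1.93 CPM, which overlapped (-0.17), and *Hist1h2bc* had an estimate of -0.06.

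The variants did not follow the clustered genes. *H2afj* had 15.9, 13.5 and 14.6 CPM in Ctrl and 23.5, 20.9 and 20.1 CPM in cKO and rose by 0.55 ± 0.09 (adjusted p = 0.00493, edgeR), with wide separation. *H2afy2* (chr10:61738665-61784147) had 238, 241 and 229 CPM in Ctrl and 274.3, 268.2 and 274.2 CPM in cKO, a small step without overlap (0.21 ± 0.05, adjusted p = 0.0306). Its 3′ end overlaps *Aifm2* on the opposite strand, which had an estimate of 0.25 (adjusted p = 0.225), and the strand setting of these counts is not given in the sources used here. *H3f3b* had 759, 797 and 810 CPM in Ctrl and 651, 698 and 743 CPM in cKO (-0.18, adjusted p = 0.114), apart but not called. *H2afx* (-0.01), *H2afz* (-0.04), *H2afv* (-0.09), *H2afy* (0.05), *H3f3a* (-0.02) and *H3f3c* (-0.06) were not called. The variant median was -0.02.

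*H2afx* and *H2afj* can be set side by side in the 2 stages. *H2afx* was called higher in both neo genotypes at E12.5 and had 161, 140 and 164 CPM in Ctrl and 153, 155 and 153 CPM in cKO at E10.5. *H2afj* had changes of 0.21 in *Chd8* neo/neo (not called) and 0.28 in *Chd8* neo/- at E12.5 and 0.55 in cKO at E10.5. The difference between the stages was not tested.

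Single libraries weighed on the E10.5 count. Without Ctrl replicate 3, 4 histone genes were called, and *Hist1h1e* (-0.66), *Hist1h4j* (-0.81), *Hist1h4k* (-0.82), *Hist3h2ba* (-0.69), *Hist2h2be* (-0.36) and *H2afy2* (0.18) were lost. There were 3 calls without cKO replicate 2 and 4 without cKO replicate 3, and 8, 11 and 12 without cKO replicate 1, Ctrl replicate 2 and Ctrl replicate 1. The share of all genes called moved as well, from 11.4% to 2.87% without cKO replicate 2, 4.4% without cKO replicate 3, 5.04% without Ctrl replicate 3 and 8.75% to 13.2% without any of the other 3. *H1f0*, *H2afj* and *Hist1h2be* were called in all 10 alternatives, and *Hist1h1c* in all but that without cKO replicate 2 (adjusted p = 0.0625).

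RNAs that lack a tail by nature were set beside the clustered genes. A list of 18 of them (among them the RNA components of RNase P, RNase MRP and telomerase, the 7SK RNA, and small nuclear, nucleolar, Y and vault RNAs) summed to 12, 17.5 and 29.3 CPM in Ctrl replicates 1, 2 and 3 and to 14.2, 8.58 and 9.96 CPM in cKO replicates 1, 2 and 3, with 5 to 8 of the 18 at 0 in a library. The 24 clustered core genes with a mean count under 100 summed to 14.2, 15.5 and 23.3 CPM in Ctrl and to 12.3, 10.6 and 11.3 CPM in cKO, in the same order of replicates. Ctrl replicate 3 was the highest library in both sums, and cKO replicate 1 exceeded Ctrl replicate 1 in the tailless sum, so that the groups overlapped there. All 7 of these RNAs that were tested had estimates below 0, with a median of -0.81, and 1 of the 7 was called, *Rpph1*, the RNA of RNase P (-1.18, adjusted p = 0.0351, edgeR), near the background of 11.4%. How much of the change of the clustered genes followed the carry-over of RNA without tails was not tested.

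**Figure D4:**
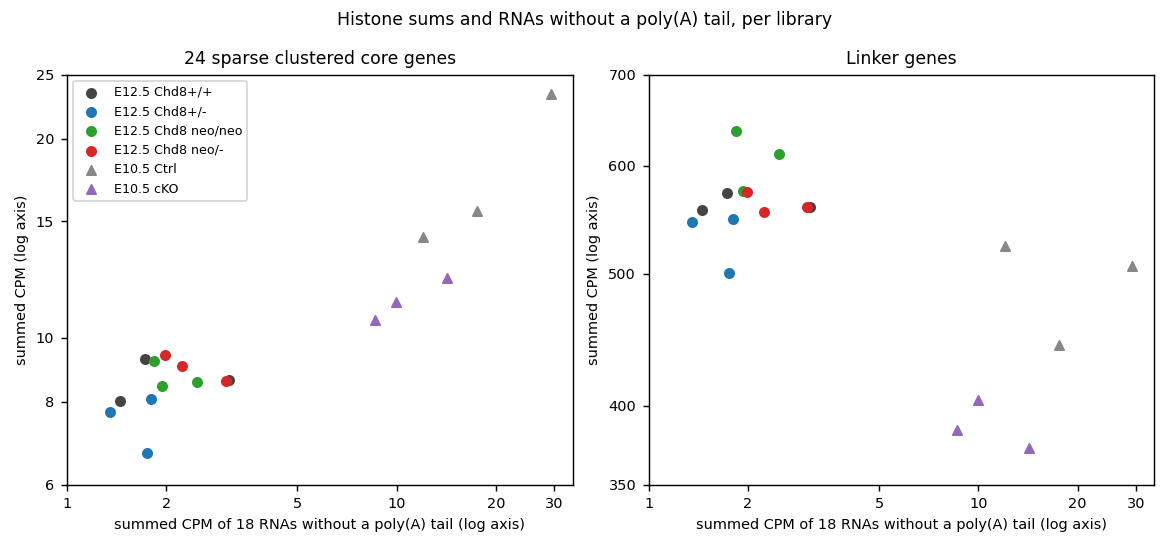
Summed CPM of the 24 sparse clustered core genes (left) and of the linker genes (right) in each library against the summed CPM of 18 RNAs without a poly(A) tail (both axes log). E12.5 libraries lie at 1.36 to 3.09 CPM of tailless RNA and 6.69 to 9.41 CPM of sparse clustered genes, and Ctrl replicate 3 lies at the upper right with 29.3 and 23.3 CPM.

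Other values stood beside the E10.5 histone changes. Over all tested genes, 5.75% were called higher and 5.7% lower in cKO, and 50.4% had estimates below 0. All 5 mesenchyme markers had estimates above 0 and 3 were called higher in cKO (*Col3a1*, *Col1a2* and *Pdgfra*), with sums of 639 to 730 CPM in Ctrl and 801 to 999 CPM in cKO and none at 0 in any library. Of 5 microglia markers 1 was called higher (*Cx3cr1*) and 4 had estimates above 0, with sums of 17.8 to 21.7 CPM in Ctrl and 23.4 to 25.5 CPM in cKO. All 6 endothelium markers had estimates above 0 and 1 was called higher (*Cdh5*), with sums of 192 to 210.0 CPM in Ctrl and 205 to 259 CPM in cKO. The sums of mesenchyme and microglia markers did not overlap between the groups, and those of endothelium did. Of 23 S-phase genes, 3 fell (*Rrm1*, -0.29, *Tk1*, -0.37, and *Prim1*, -0.26), and the median was -0.03, where the clustered core median was -0.57. The part of RNA from these other cell types or of S phase in the histone values was not tested.

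Of the 50 genes of histone supply, 3 rose and 5 fell in cKO, the first near the background of 5.75% and the second above that of 5.7%. *Nasp*, a chaperone of H3, H4 and H1 in the soluble pool, fell by 0.36 (adjusted p = 0.00673, edgeR), and *Slbp*, the stem-loop binding protein that processes the clustered transcripts, by 0.25 (adjusted p = 0.0235). *Zfp473*, of the same processing machinery, rose by 0.45 (adjusted p = 0.0240), *Srcap*, the remodeler that exchanges H2A.Z into nucleosomes, by 0.52 (adjusted p = 0.0289), and *Ubn1*, of the HIRA complex, by 0.21 (adjusted p = 0.0496). The median of the list was 0.01.

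**Figure D5:**
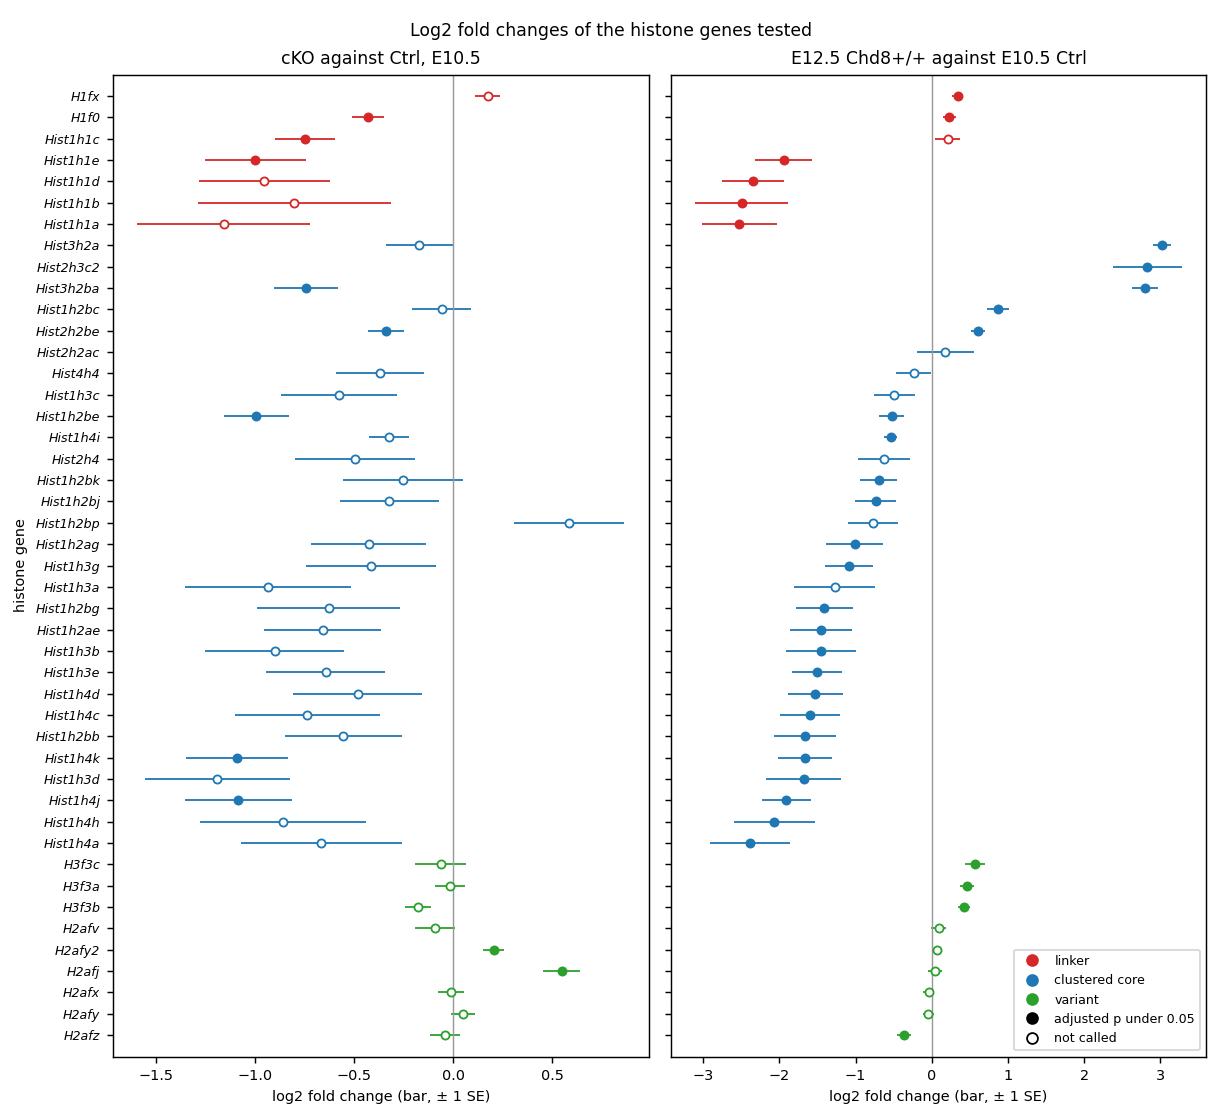
Log2 fold change ± 1 SE of each tested histone gene, cKO against Ctrl at E10.5 (left) and E12.5 *Chd8*+/+ against E10.5 Ctrl (right), by class, with filled points at an adjusted p under 0.05. On the left 26 of 27 clustered core genes lie below 0, among them genes that reached the count minimum through E10.5 alone. On the right genes of chromosome 13 reach -2.53 while *Hist3h2a* reaches 3.02.

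More genes of every kind were called between the controls of the 2 stages than between genotypes. In E12.5 *Chd8*+/+ against E10.5 Ctrl, 33 of 45 histone genes were called, 10 higher and 23 lower, against a background of 67.5% (33.7% higher, 33.8% lower). The minimum of counts bears on this split: 10 of the 45 reached it through E10.5 alone, where they were higher, and 9 of these 10 are among the 23 lower calls, while 1 reached it through E12.5 alone and was called higher. Of the 34 histone genes that reached the minimum at both stages, 9 were higher and 14 lower, with a median of -0.30. Stage cannot be told apart here from the sequencing run, the pooling of embryos, the tissue dissected, the genotype of the controls or the settings of the read counting, which are given for E12.5 alone and bear on genes with near copies, and CPM below come from the 6 libraries scaled together. At E12.5, 4 of the 5 linker genes of chromosome 13 and 18 of its 22 clustered core genes were lower, while *H1f0*, *H1fx*, *H3f3a*, *H3f3b*, *H3f3c* and 4 of the 7 clustered core genes elsewhere were higher.

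Large increases were found in the paired genes of chromosome 11. *Hist3h2a* had 2.30, 1.83 and 2.05 CPM in Ctrl and 16.2, 18.4 and 15.7 CPM in *Chd8*+/+ (3.02 ± 0.12, adjusted p = 1.12e-09, edgeR). *Hist3h2ba* had 7.52, 4.71 and 6.75 CPM in Ctrl and 42.2, 50.5 and 39.1 CPM in *Chd8*+/+ (2.79 ± 0.17, adjusted p = 5.59e-07). Both were far apart between the stages, with *Trim17*, which overlaps *Hist3h2a*, at 0.91 (adjusted p = 0.00112). *Hist2h3c2* rose by 2.83 ± 0.46 from few counts (3, 1 and 4 against 15, 19 and 17, adjusted p = 1.52e-04). It was the gene that reached the count minimum through E12.5 alone, which chose it for being higher there. Of its 75-base words, 62.6% are shared with other genes. *Hist1h2bc* rose by 0.87 (adjusted p = 1.80e-04) and *Hist2h2be* by 0.61 (adjusted p = 1.32e-04), both genes without a stem-loop found.

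On chromosome 13, 18 of 22 clustered core genes were lower at E12.5 and 1, *Hist1h2bc*, was higher, with a median of -1.43. Of these 22, 8 reached the count minimum through E10.5 alone, which chose them for being higher there, and among the other 14 the calls were 11 lower and 1 higher, with a median of -0.89. Of the 7 elsewhere, 4 were higher and 0 lower, with a median of 0.61. Of the 6 of these that reached the minimum at both stages, 3 were higher and 0 lower, with a median of 0.39. By family, 7 of 9 H4 genes were lower and 0 higher, as were 5 and 3 of 9 H2B, 4 and 1 of 7 H3 and 2 and 1 of 4 H2A genes. Of all genes, 33.8% were lower and 33.7% higher. The family counts include the 8 genes that reached the minimum through E10.5 alone, and *Hist2h3c2*, which did so through E12.5 alone. *Hist1h4i* had 32.39, 26.99 and 28.65 CPM in Ctrl and 20.5, 21.2 and 18.8 CPM in *Chd8*+/+ and fell by 0.54 ± 0.09 (adjusted p = 1.80e-04, edgeR). This well counted H4 gene was lower in each E12.5 library. The changes of the other clustered core genes of chromosome 13 that were called lower ran from -2.38 (*Hist1h4a*) to -0.52 (*Hist1h2be*), with *Hist1h4j* at -1.91 and *Hist1h4k* at -1.67. *Hist1h4a* reached the count minimum through E10.5 alone.

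Linker genes went both ways. *Hist1h1a* had 0.46, 0.89 and 1.56 CPM in Ctrl and 0.18, 0.22 and 0.11 CPM in *Chd8*+/+ (-2.53 ± 0.49, adjusted p = 8.95e-04, edgeR). *Hist1h1e* had 1.14, 1.52 and 2.35 CPM in Ctrl and 0.57, 0.53 and 0.20 CPM in *Chd8*+/+ (-1.95 ± 0.37, adjusted p = 7.76e-04). Their groups did not overlap, at few counts per library, *Hist1h1a* and *Hist1h1b* being 2 of the genes that reached the minimum through E10.5 alone, and *Hist1h1b* (-2.50 ± 0.61) and *Hist1h1d* (-2.35 ± 0.41) were lower too. *Hist1h1c* had 7.01 ± 1.05 CPM in *Chd8*+/+ and 6.06 ± 1.33 in Ctrl, which overlapped (0.21, adjusted p = 0.280). *H1f0* rose by 0.23 ± 0.08 (486 ± 15.6 against 415 ± 42.4 CPM, adjusted p = 0.0286) and *H1fx* by 0.34 ± 0.07 (77.6 ± 5.78 against 61.3 ± 3.16 CPM, adjusted p = 0.00104).

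Among variants, *H3f3b* rose from 781 ± 24.3 to 1045 ± 55.1 CPM (0.42, adjusted p = 4.28e-04, edgeR), *H3f3a* from 275.9 ± 30.8 to 381 ± 37.8 CPM (0.47, adjusted p = 9.26e-04) and the pseudogene *H3f3c* by 0.56 (adjusted p = 0.00225). Of the 75-base words of *H3f3c*, 59.9% are shared with other genes, so its rise is uncertain. *H3f3a* overlaps 2 noncoding genes on the opposite strand. *H2afz* was the 1 variant that fell, from 699 ± 68.0 to 544 ± 43.0 CPM (-0.36, adjusted p = 0.00406). *H2afx* (-0.04), *H2afj* (0.04), *H2afv* (0.09), *H2afy* (-0.05) and *H2afy2* (0.06) were not called. The variant median was 0.06, against -0.01 for all tested genes. The clustered core median was -1.01 and the linker median -1.95, and over the genes that reached the count minimum at both stages they were -0.67 (20 genes) and 0.21 (5 genes).

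Several measures moved with this stage difference. The 18 RNAs without tails summed to 1.36 to 3.09 CPM over the E12.5 libraries and 12 to 29.3 in Ctrl, and all 5 tested were lower at E12.5 (median -3.08). All 23 S-phase genes were lower at E12.5, with a median of -0.65, and neuron markers summed to 4082 to 4897 CPM in *Chd8*+/+ and 231 to 404 CPM in Ctrl, with 1 or 2 of the 15 at 0 in each Ctrl library. Of the histone supply genes, 29 were lower and 8 higher at E12.5, against backgrounds of 33.8% and 33.7%, with *Cenpa* (-0.97, adjusted p = 2.64e-07, edgeR), *Slbp* (-0.82, adjusted p = 3.29e-07) and *Asf1b* (-0.95, adjusted p = 3.59e-07) first among the lower and *Srcap* (1.02, adjusted p = 1.24e-05), *Ubn1* (0.33) and *Ubn2* (0.41) among the higher. How each of these bears on the histone values was not tested. By class, the clustered core of chromosome 13 summed to 24.5 to 36.3 CPM over the 12 E12.5 libraries, 43.7 to 52.7 in Ctrl and 33.4 to 41.0 in cKO, and the clustered core elsewhere to 69.7 to 102 CPM, 27.8 to 34.5 CPM and 22.9 to 24.8 CPM, each scaled within its own table.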

How the data were processed

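The authors prepared stranded libraries from selected mRNA, sequenced paired reads of 75 bases, trimmed them (Trim Galore 0.4.1), aligned them to GRCm38 (TopHat2 2.1.0) and counted them per gene with featureCounts 1.5.0. Per the file headers, the E12.5 counts took no account of strand and left out reads that matched several places or genes; for E10.5 this is not given in the sources used here. The deposited values are raw counts per gene and run, not normalized or pooled. The 2 runs per library were summed. Libraries were scaled by TMM, low genes removed by filterByExpr, and groups compared with edgeR 4.0.16 (R 4.3.3; glmQLFit, robust), with the 12 E12.5 libraries in 1 fit. CPM are TMM-scaled. DESeq2 1.42.0, other scaling, no filter, a replicate block, fewer groups and left-out libraries were alternatives. Scripts were tested on simulated data. Deviations of same-numbered libraries correlated over 0.1 in all 3 pairs in *Chd8* neo/neo against *Chd8*+/- alone (0.108, 0.195 and 0.199). The main fits had no replicate block, which was an alternative only, and no source names what the numbers share. Histone genes, lists and tests were chosen with earlier results of these data known. Genes named in the text are all linker and variant genes, called clustered core genes (at most the 6 smallest adjusted p-values per comparison and direction), the 3 highest per kb of each core family, and at most 3 histone supply genes per direction; others are said to be chosen after their values were seen. Some genes of the lists are not reported here.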

Additional observations from a re-analysis of the deposited data

How the results depend on the processing

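Of 506 gene values recomputed under the alternatives, 405 kept their direction and call, 101 kept their direction but missed the threshold, and 0 changed sign. Most of these values belong to the stage difference, and the calls between E12.5 genotypes were less stable. In *Chd8* neo/neo against *Chd8*+/+, *H2afx* was called in 9 of 11 alternatives, *H1fx* in 5, *Hist3h2a* in 4 and *H2afv* in 3. The count of histone genes called in *Chd8* neo/neo against *Chd8*+/+, 4, was 2 with the replicate block, 1 with only the 2 groups compared and 0 to 2 with a library left out. In *Chd8* neo/- against *Chd8*+/+ it was 3, and 1 with the replicate block and 0 to 2 with a library left out. In *Chd8* neo/neo against *Chd8*+/- it was 2, and 1 with RLE scaling, 1 with the replicate block, 4 with DESeq2, 0 with only the 2 groups compared and 0 to 2 with a library left out. For *Chd8* neo/- against *Chd8*+/- it was 1, and 3 with DESeq2, 2 with only the 2 groups compared and 0 to 1 with a library left out. In cKO against Ctrl it was 10, and 10 with RLE scaling, 13 without a filter, 11 with the replicate block and 3 to 12 with a library left out. The stage difference called 29 to 34 histone genes with a library left out, against 33. Over all genes, the calls upward and downward for *Chd8* neo/neo against *Chd8*+/+ went from 697 and 837 to 169 and 261 with only the 2 groups compared. In *Chd8* neo/neo against *Chd8*+/- they went from 377 and 617 to 612 and 1174 with DESeq2, 201 and 371 with the replicate block and 20 and 22 with only the 2 groups compared. For *Chd8* neo/- against *Chd8*+/- they went from 410 and 611 to 573 and 1127 with DESeq2, in *Chd8* neo/- against *Chd8* neo/neo from 2 and 1 to 18 and 9, and in *Chd8*+/- against *Chd8*+/+ from 3 and 1 to 9 and 6. The causes were not tested. Correlations of same-numbered libraries ran from -0.268 to 0.114 in the other comparisons, and the replicate block was not used for the stage difference. DESeq2 gave no adjusted p for many sparse clustered genes, *Hist1h4k* included. Most clustered core genes had a mean under 100 counts, which limits their precision.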
